A study of Homo sapiens with 16 samples.

Results

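The genes described here are 10 regulators of the G1 phase of the cell cycle: the inhibitors CDKN1A, CDKN1B, CDKN1C, CDKN2A, CDKN2B and CDKN2C, the cyclins CCND1, CCND3 and CCNE1, and the kinase CDK6. They are 10 of the 58721 genes in the count table, matched by gene name, and the set was chosen by 1 measured value: CDKN1A was higher in SCaBER cells under both siRNAs against FOXA1. The data are 16 libraries of 3' mRNA sequencing from 2 established human lines of bladder carcinoma, the luminal RT112 and the basal SCaBER. Cells of each line were transfected with 10 nM of 1 of 4 siRNAs. The groups were siControl.1 and siControl.2, which are controls, and siFOXA1.1 and siFOXA1.2, which target FOXA1, a pioneer transcription factor of the luminal programme. Each siRNA has 2 libraries per line, numbered 1 and 2 for an experiment batch replicate. All groups, the controls included, carried a transfected siRNA. The labels give no time after transfection, and the study describes its FOXA1 knock-down by siRNA as short-term. RT112 was grown in RPMI and SCaBER in DMEM, each with serum, so line and medium cannot be told apart.

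Cells pass from G1 into S phase when cyclin and kinase pairs phosphorylate the retinoblastoma protein and release E2F factors. Cyclins D1 and D3, encoded by CCND1 and CCND3, bind CDK4 or CDK6, and cyclin E1, encoded by CCNE1, binds CDK2. INK4 inhibitors (CDKN2A, p16; CDKN2B, p15; CDKN2C, p18) bind CDK4 and CDK6 and keep them from the D cyclins. Cip/Kip inhibitors (CDKN1A, p21; CDKN1B, p27; CDKN1C, p57) bind cyclin and CDK complexes, and CDKN1A is a well-known target of p53. In bladder cancer, loss of CDKN2A and gain of CCND1, CCNE1 or CDK6 are known alterations.

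The library totals were 6622473 to 7604581 counts in RT112 and 4528513 to 6914951 counts in SCaBER. FOXA1 in RT112 had 18.2 to 35.0 CPM (counts scaled to a library total of 1000000) under the controls, 1.32 and 3.24 CPM under siFOXA1.1 and 9.18 and 16.0 CPM under siFOXA1.2. Its log2 fold change was -3.45 ± 0.47 (SE) under siFOXA1.1 (adjusted p = 1.39e-05) and -1.10 ± 0.39 under siFOXA1.2 (adjusted p = 0.215). In SCaBER it had 0.50 to 2.43 CPM under the controls and 0 to 0.95 CPM under both siRNAs against it, near the detection floor of 3 counts (0.434 to 0.662 CPM), so the knock-down could not be measured there. The luminal markers GATA3 (425 to 467 CPM in RT112, 7.79 to 18.1 CPM in SCaBER, siControl) and PPARG were higher in RT112, while KRT20 and UPK3A were at 0 in all control libraries of both lines. The basal markers KRT14 (2.26 to 3.61 CPM in RT112, 379 to 785 CPM in SCaBER) and KRT6A were higher in SCaBER, and TP63 had overlapping ranges. Of 6 markers of stroma, leukocytes and endothelium, the summed level was 10.4 to 17.7 CPM in RT112 controls, 12.6 to 25.5 CPM under siFOXA1.2 and 54.4 to 58.1 CPM under siFOXA1.1. COL1A1 made up 53.9 and 56.5 CPM of the last, and COL1A2, COL3A1, PTPRC and CD3E were at 0 in all RT112 controls. The share of mitochondrial counts was 27.0 ± 1.77% (SD, n = 2) in RT112 siFOXA1.1 against 18.5 to 20.7% as means of the other siRNAs.

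Promoter sequences were taken from RefSeq (GRCh38.p14) for 8 of the 10 genes, 14 windows of 250 bases before a start site. CCND1 and CDKN1C had no entry. Windows were searched on both strands for the GC box GGGCGG, which Sp1-type factors bind, the E2F-like letters TTTGGCGC, TTTCCCGC, TTTGCCGC and TTTCGCGC, the forkhead letters TGTTTAC and TATTTAC, and the AP-1 letters TGANTCA. A GC box lay in 42.6% of 35116 promoters of the same length, E2F-like letters in 2.79%, forkhead letters in 5.27% and AP-1 letters in 6.57%. The 3 windows below are those of the genes with the largest change in either line (CDKN1A in SCaBER, CCNE1 and CDKN2C in RT112), and for CDKN2C the window with forkhead letters. Capitals mark a GC box on either strand and, in CDKN2C, also the forkhead letters.
CDKN1A, chr6:36678464-36678713, plus strand: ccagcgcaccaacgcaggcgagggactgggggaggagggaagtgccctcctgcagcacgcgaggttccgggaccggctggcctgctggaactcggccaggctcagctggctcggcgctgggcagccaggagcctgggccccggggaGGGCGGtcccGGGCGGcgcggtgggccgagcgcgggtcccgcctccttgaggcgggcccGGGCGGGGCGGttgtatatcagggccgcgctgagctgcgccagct
CCNE1, chr19:29811741-29811990, plus strand: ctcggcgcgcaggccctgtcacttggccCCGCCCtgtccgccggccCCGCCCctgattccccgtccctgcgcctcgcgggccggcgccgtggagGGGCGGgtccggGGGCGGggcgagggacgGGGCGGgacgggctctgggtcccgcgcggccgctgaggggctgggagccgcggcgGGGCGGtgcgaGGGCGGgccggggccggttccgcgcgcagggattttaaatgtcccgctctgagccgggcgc
CDKN2C, chr1:50969995-50970244, plus strand: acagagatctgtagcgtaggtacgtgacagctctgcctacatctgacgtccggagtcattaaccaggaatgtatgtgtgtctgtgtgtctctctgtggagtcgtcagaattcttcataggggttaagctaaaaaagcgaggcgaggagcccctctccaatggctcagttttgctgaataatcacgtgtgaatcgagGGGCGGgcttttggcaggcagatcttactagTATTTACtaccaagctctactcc
CDKN1A held 4 GC boxes, a pair of which overlap (at -45 and -40), and CCNE1 held 7. CDKN2C held 1 GC box at -54 and TATTTAC at -23, the only forkhead match in the 14 windows. Of the other 2 CDKN2C windows, not shown, chr1:50968456-50968705 held 5 GC boxes and the other none. No window held the E2F-like or AP-1 letters. These matches are letters in a window and not measured binding sites.

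Levels between genes were compared per length, in TPM (a unit that corrects counts for gene length and library total), in the 4 siControl libraries of each line. The kit reads transcript ends, so its counts need not scale with gene length, and the order depends on this division. In RT112, CCND1 was highest at 90.9 ± 10.3 TPM (SD, n = 4) and did not overlap the next gene. CDKN1A (32.3 ± 6.44 TPM), CCND3, CDKN1B, CCNE1, CDKN2C and CDK6 (9.51 ± 0.415 TPM) followed, and each of these overlapped its neighbour. In CPM, with no division by length, CDK6 (59.5 CPM as a mean) came after CCND1 and CCND3 and before CDKN1A (50.2 CPM). CDKN1C had 0.445 TPM as a mean, with counts of 0 and 5 in siControl.1 and 10 and 1 in siControl.2, and 0 counts in the other 12 libraries of the study. CDKN2A and CDKN2B had 0 counts in all 8 RT112 libraries. In SCaBER, CCND1 was again highest at 404 ± 95.8 TPM and stood apart from the next. CDKN1A (64.4 ± 14.1 TPM), CDK6 (53.1 ± 21.2 TPM), CDKN2A (34.5 ± 5.27 TPM), CCND3, CDKN1B and CDKN2C (19.0 ± 4.40 TPM) followed with overlapping neighbours. In CPM the order of CDKN1A and CDK6 was reversed there, with CDK6 at 177 to 378 CPM above all values of CDKN1A (53.6 to 93.2 CPM). CDKN2B (9.03 ± 1.00 TPM) and CCNE1 (4.23 ± 1.12 TPM) came last of the detected genes, each apart from its neighbours. CDKN1C was at 0 in all SCaBER libraries, and passed the filter on low counts in no comparison.

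**Figure D1:**
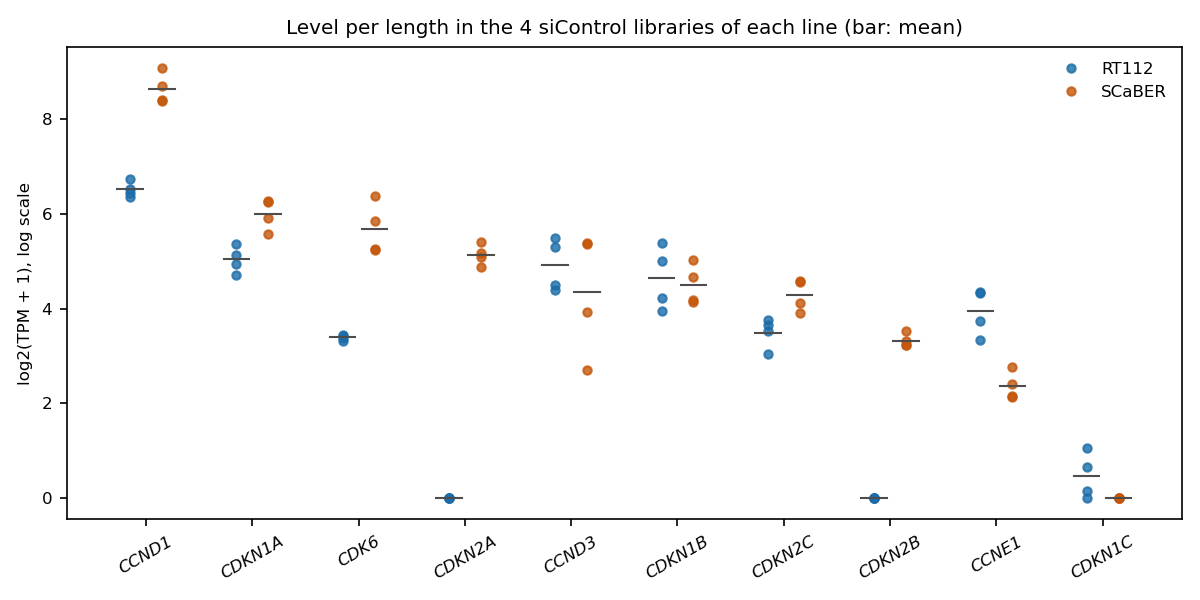
Levels of the 10 genes in the siControl libraries of RT112 (blue) and SCaBER (orange), on a log2(TPM + 1) axis, with a point per library and a bar at the mean of 4. CCND1 was highest in both lines, while CDKN2A and CDKN2B lay at 0 in RT112 and at 34.5 and 9.03 TPM in SCaBER.

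The lines were compared under siControl with edgeR's quasi-likelihood test. CDKN2A and CDKN2B, which reach the filter through SCaBER alone, and CDKN1A, whose SCaBER controls belong to the contrast that chose it, carry no test here. Of the other 6 genes, 3 passed an adjusted p of 0.05, beside 42.3% of all genes tested. RT112 was higher in CCNE1 and lower in CCND1 and CDK6. CDKN2A had 49.6, 67.3, 60.2 and 55.7 CPM in the SCaBER controls, a mean of 58.2 CPM, which is at least 128-fold above the floor of 3 counts (0.453 CPM per library) that the 0 counts of RT112 allow. CDKN2B had 13.2 to 16.1 CPM in the SCaBER controls, a mean of 14.3 CPM, at least 31.6-fold above that floor. CCND1 had 196 to 268 CPM in RT112 and 621 to 977 CPM in SCaBER, a log2 fold change of -1.73 ± 0.16 (adjusted p = 4.06e-07). CDK6 had 57.5 to 63.1 CPM in RT112 and 177 to 378 CPM in SCaBER, a log2 fold change of -2.07 ± 0.22 (adjusted p = 1.60e-06). CCNE1 had 12.2 to 24.9 CPM in RT112 and 3.27 to 5.74 CPM in SCaBER, a log2 fold change of 2.22 ± 0.36 (adjusted p = 0.000137). The ranges of CCND1, CDK6 and CCNE1 did not overlap between the lines, as for 39.7% of all genes tested.

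CDKN1A had 40.2, 47.7, 51.4 and 61.3 CPM in RT112 and 93.2, 53.6, 72.0 and 89.2 CPM in SCaBER, overlapping ranges with a log2 fold change of -0.60 ± 0.20, given as a description. CDKN1B (0.61 ± 0.30, adjusted p = 0.121), CDKN2C (-0.45 ± 0.28, 0.221) and CCND3 (0.68 ± 0.45, 0.248) did not pass, though CDKN1B did without RT112 siControl.1 replicate 1 (adjusted p = 0.0459), CDKN2C did with limma on log2(TPM + 1) (adjusted p = 0.0242) and CCND3 did with no filter (adjusted p = 0.00347).

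CDKN2A lies at chr9:21967752-21995324 and CDKN2B at chr9:22002903-22009313 in GRCh38.p14. The CDKN2A locus encodes p16 and, from another reading frame, ARF, and the counts per gene do not tell the transcripts apart. Because the RT112 libraries held no count of either gene, the neighbouring genes were read too, a choice made after the values had been seen. Of 55 RefSeq genes that reach into 1 Mb on either side of the CDKN2A start site, 45 were matched by name, 13 had a count in SCaBER and 2 had a count in RT112. In SCaBER, IFNB1 and DMRTA1 had 1 count each in total, IFNE had 4, and LINC01239 was at 0 in 6 of 8 libraries. Their 0 counts in RT112 do not set the lines apart. The pair with RT112 counts was FOCAD (14.7 to 33.0 CPM in RT112, 19.9 to 37.3 CPM in SCaBER) and KLHL9 (18.3 to 48.1 CPM in RT112, 5.77 to 15.6 CPM in SCaBER). MTAP, a methionine salvage enzyme encoded beside CDKN2A, had 0 counts in all 8 RT112 libraries and 8.57 to 19.8 CPM in SCaBER. HACD4 (2.06 to 9.66 CPM in SCaBER), MIR31HG, UBA52P6 and CDKN2B-AS1 were likewise at 0 in all RT112 libraries. CDKN2B-AS1 runs antisense to CDKN2B, and reads of overlapping genes may be shared.

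**Figure D2:**
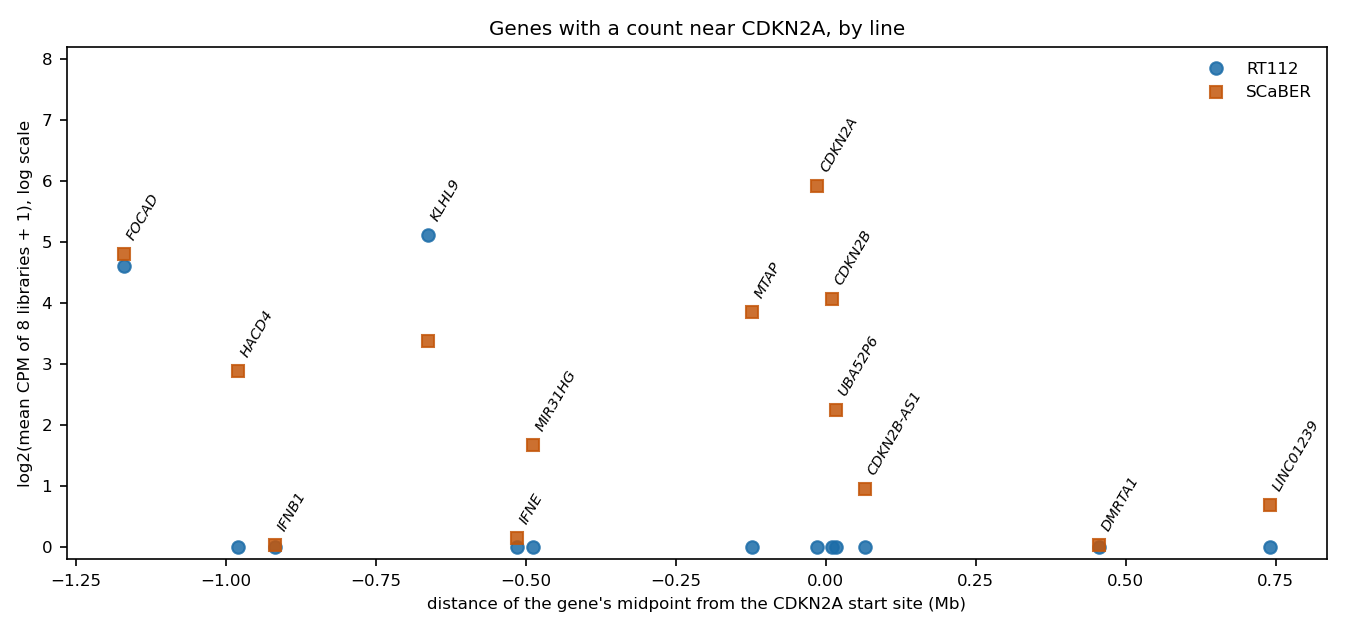
Mean level of the genes with a count that reach into 1 Mb on either side of the CDKN2A start site. RT112 (blue circles) and SCaBER (orange squares) are each a mean of 8 libraries on a log2(CPM + 1) axis. The other axis is the distance of the gene's midpoint from that site, and the midpoint of FOCAD lies beyond 1 Mb. RT112 had counts for FOCAD and KLHL9 and lay at 0 for the other 11 genes. Of those, IFNB1, DMRTA1, IFNE and LINC01239 were at 0 in most SCaBER libraries too.

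In RT112, siFOXA1.1 against both controls changed 5 of the 7 genes tested (adjusted p under 0.05), beside 29.1% of the 13462 genes tested. CCNE1, CDKN2C, CCND3 and CCND1 fell and CDK6 rose, and neither Cip/Kip inhibitor passed. The median log2 fold change of the 7 was -0.48, and that of all genes tested was -0.02. The all-gene median was -0.14 with library totals in place of TMM and -0.30 with limma on TPM, and the calls over all genes moved from 1878 higher and 2037 lower to 1490 and 2453 with library totals and to 676 and 2535 with limma. The 5 genes kept their direction and passed under both. Counting CPM ranges alone, siFOXA1.1 and the controls did not overlap for 6 of the 7 genes (these 5 and CDKN1A), as for 44.2% of all genes tested. In bulk RNA, a lower level in every cell and fewer cells that express a gene cannot be told apart. Of the 10 proliferation markers, 9 fell in the same contrast (adjusted p under 0.05), beside 15.1% of all genes. Their summed level was 385 and 733 CPM under siFOXA1.1 against 2844 to 3365 CPM in the controls. The part of proliferation, of the mitochondrial share and of COL1A1 in the changes of the G1 genes was not tested.

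**Figure D3:**
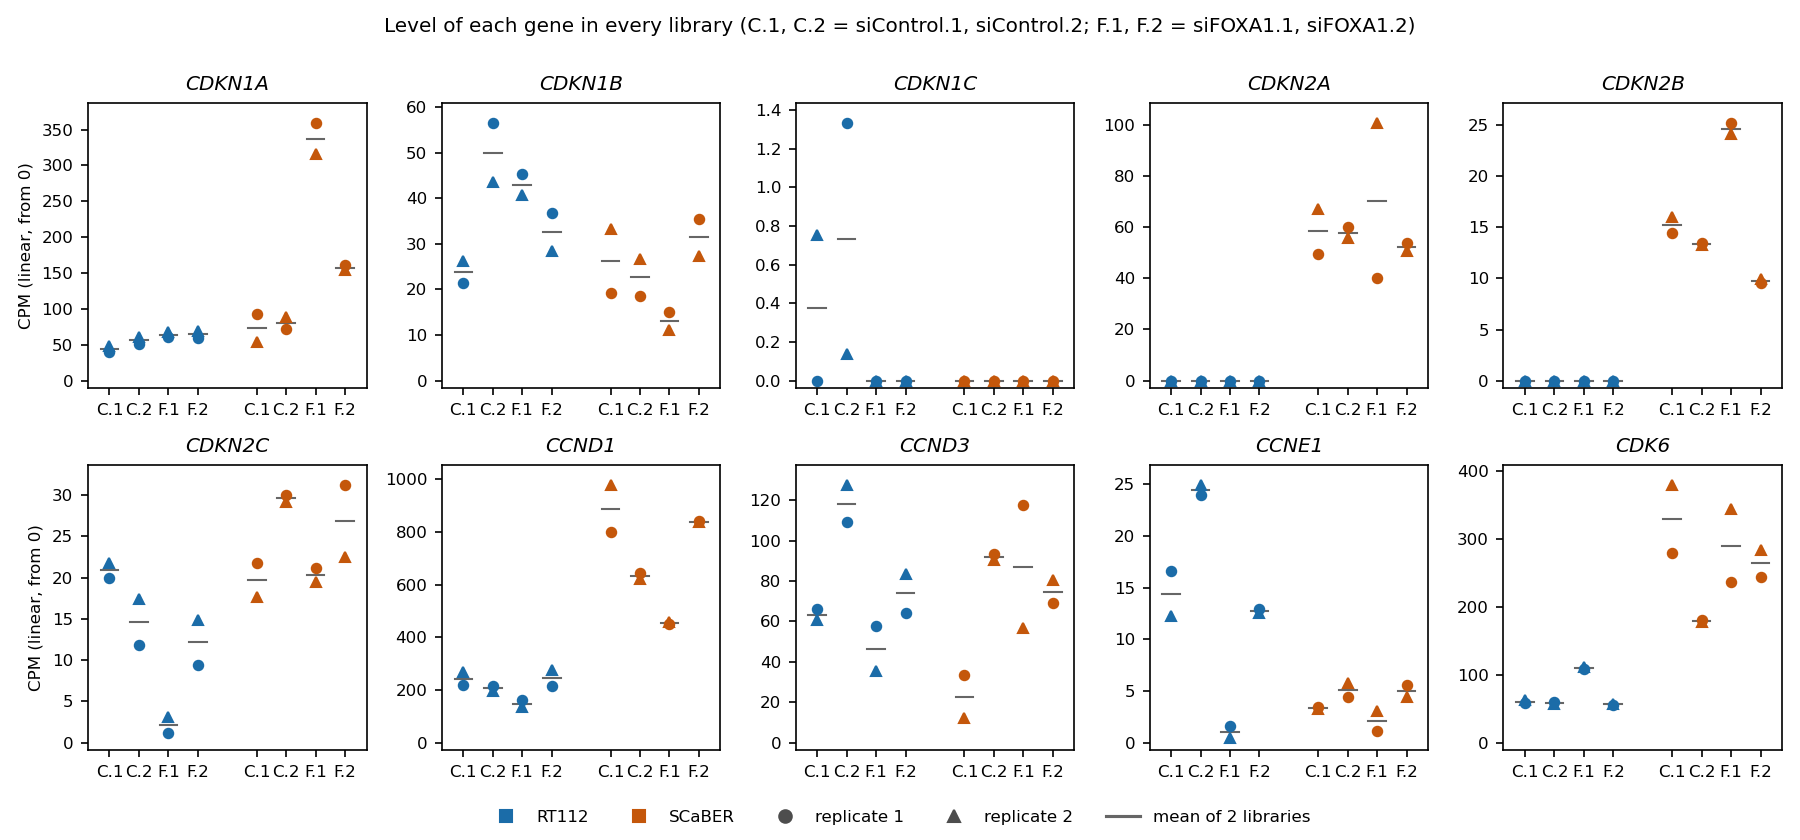
Level of each of the 10 genes in every library, in CPM on a linear axis, for RT112 (blue) and SCaBER (orange) under each siRNA, with circles for replicate 1, triangles for replicate 2 and a line at their mean. CCNE1 and CDKN2C lay below all other RT112 libraries under siFOXA1.1, and CDKN1A lay above all other SCaBER libraries under siFOXA1.1.

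CCNE1, at chr19:29811991-29824312, changed most among the G1 genes. It had 16.6 and 12.2 CPM under siControl.1, 24.0 and 24.9 under siControl.2, 1.61 and 0.44 under siFOXA1.1, and 13.0 and 12.6 under siFOXA1.2. The siFOXA1.1 libraries, with 11 and 3 counts, lay under all other RT112 libraries. The log2 fold change was -4.05 ± 0.54 (adjusted p = 1.02e-05), and -3.33 and -4.51 within batch 1 and batch 2. CCNE1 passed in 16 of 16 alternatives, with log2 fold changes from -5.21 to -3.22.

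CDKN2C, at chr1:50960745-50974634, was the 1 of the 3 INK4 genes of the set with counts in RT112 (CDKN2D, the p19 gene, is outside the set and had 156 to 257 counts in the controls). It had 19.99 and 21.7 CPM under siControl.1, 11.8 and 17.4 under siControl.2, 1.17 and 3.09 under siFOXA1.1, and 9.47 and 14.9 under siFOXA1.2. The siFOXA1.1 pair again lay lowest, with no overlap with the controls. The log2 fold change was -2.89 ± 0.51 (adjusted p = 0.000222), and -3.35 and -2.40 within the batches, and it passed in 16 of 16 alternatives. Both CCNE1, a cyclin that drives S phase entry, and CDKN2C, an inhibitor of CDK4 and CDK6, fell under the same siRNA.

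The D cyclins fell less. CCND3, at chr6:41934933-42050035, had 66.0 and 60.7 CPM under siControl.1, 109 and 127 under siControl.2, and 57.6 and 35.4 under siFOXA1.1, a log2 fold change of -0.78 ± 0.20 (adjusted p = 0.00589) and of -0.46 and -1.16 within the batches. CCND1, at chr11:69641156-69654474, had 219 and 268 CPM under siControl.1, 216 and 196 under siControl.2, and 161 and 134 under siFOXA1.1, a log2 fold change of -0.48 ± 0.14 (adjusted p = 0.0131) and of -0.34 and -0.62 within the batches. The siFOXA1.1 libraries lay below all controls for both cyclins, most closely for CCND3 against siControl.1. Without siFOXA1.1 replicate 2 neither passed (CCND3 adjusted p = 0.103, CCND1 0.0682). CCND3 also did not pass against siControl.1 alone (-0.36, adjusted p = 0.272) or in 1 fit over all 16 libraries (adjusted p = 0.101), and CCND1 did not against siControl.2 alone (-0.33, adjusted p = 0.143).

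CDK6, at chr7:92604921-92836573, was the gene that rose. It had 57.7 and 63.1 CPM under siControl.1, 59.6 and 57.5 under siControl.2, and 108 and 111 under siFOXA1.1, above all controls. The log2 fold change was 1.01 ± 0.16 (adjusted p = 7.45e-05), and 0.97 and 1.03 within the batches, and CDK6 passed in 16 of 16 alternatives.

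Of the Cip/Kip inhibitors, CDKN1A, at chr6:36676463-36687332, had 40.2 to 61.3 CPM in the RT112 controls, 61.4 and 67.2 under siFOXA1.1 and 59.3 and 69.4 under siFOXA1.2. The siFOXA1.1 libraries lay above all controls, the lower of them narrowly. The log2 fold change of CDKN1A was 0.49 ± 0.19 under siFOXA1.1 (adjusted p = 0.0558) and 0.39 ± 0.19 under siFOXA1.2 (adjusted p = 0.451). With the replicate block the siFOXA1.1 value was 0.50 (adjusted p = 0.0479), and against siControl.1 alone 0.64 (adjusted p = 0.0410). CDKN1B, at chr12:12717368-12722369, had 21.4 and 26.3 CPM under siControl.1, 56.4 and 43.5 under siControl.2, and 45.3 and 40.7 under siFOXA1.1, so the siFOXA1.1 libraries lay within the range of the controls. Its log2 fold change was 0.44 ± 0.23 (adjusted p = 0.170), and 0.94 against siControl.1 alone (adjusted p = 0.0163).

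Under siFOXA1.2 in RT112, 0 of the 7 genes passed by edgeR, by DESeq2 or by limma, beside 1.78% of all genes tested by edgeR. An unadjusted p under 0.05 was found for 0 of the 7, beside 11.4% of all genes. The log2 fold changes ran from -0.54 ± 0.41 for CCNE1 to 0.39 ± 0.19 for CDKN1A. CDK6 was 55.7 and 56.8 CPM, just under the lowest control, and was the 1 gene of 7 that did not overlap the controls, as for 19.4% of all genes tested. With both siRNAs pooled, 0 of 7 passed by the same tools, beside 0.0966% of all genes by edgeR, and 2 had an unadjusted p under 0.05 (CDKN1A and CDKN2C), beside 12.0% of all genes. The pooled siRNAs did not stand apart from the controls for any of the 7 genes, as they did for 7.43% of all genes tested. Averaging the contrasts of the siRNAs, which keeps a mean for each siRNA, gave 4 calls, beside 15.3% of all genes, with CCNE1 at -2.29, CDKN2C at -1.70, CCND3 at -0.49 and CDK6 at 0.47.

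**Figure D4:**
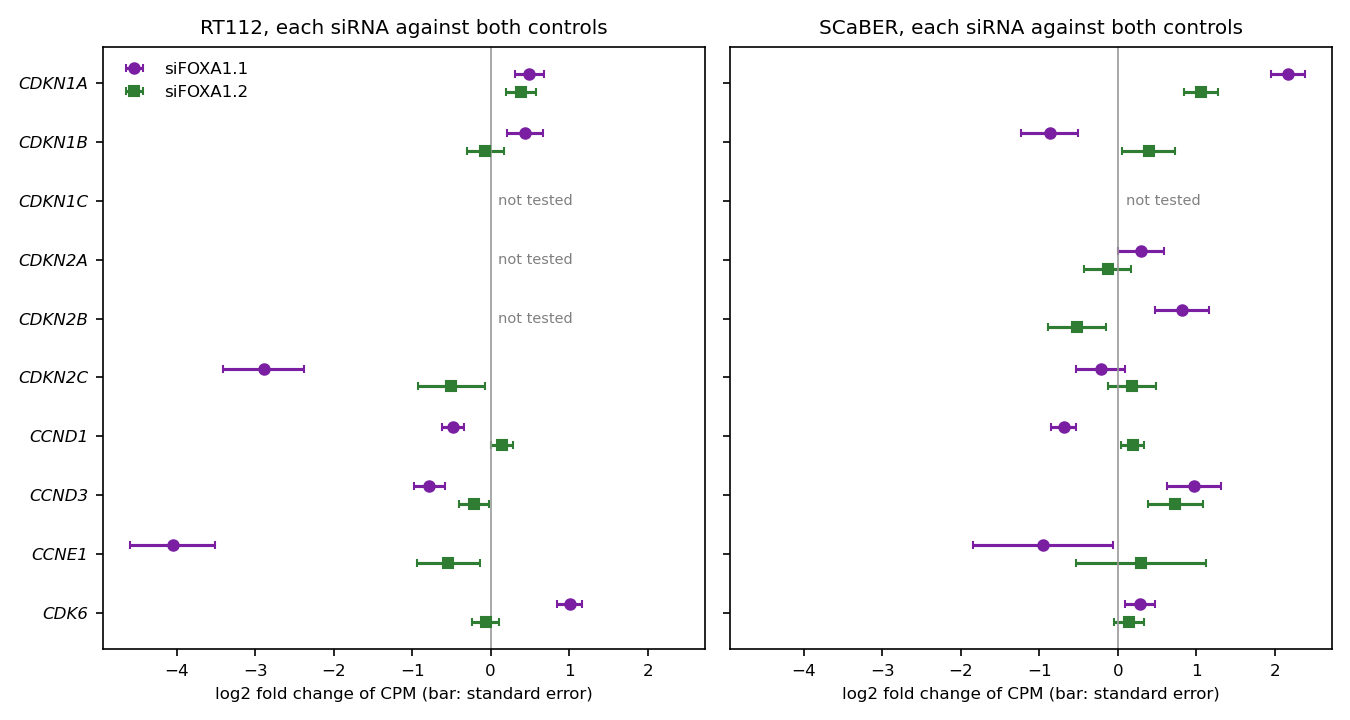
Log2 fold change of each gene under siFOXA1.1 (purple circles) and siFOXA1.2 (green squares) against both controls in RT112 (left) and SCaBER (right), with bars of 1 SE. CCNE1 lay at -4.05 and -0.54 in RT112, and CDKN1A at 2.16 and 1.06 in SCaBER, where the values are a description.

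The siRNAs against FOXA1 were also set against each other, a comparison without control libraries. In RT112, 4 of 7 genes differed, beside 24.7% of all genes. CCNE1 (-3.51 ± 0.57, adjusted p = 0.000123), CDKN2C (-2.39 ± 0.55, adjusted p = 0.00284) and CCND1 (-0.63 ± 0.16, adjusted p = 0.00653) were lower and CDK6 (1.07 ± 0.19, adjusted p = 0.000360) was higher under siFOXA1.1. CDKN1A differed by 0.11 ± 0.22 (adjusted p = 0.780). Without siFOXA1.2 replicate 2 (adjusted p = 0.113) or with limma (adjusted p = 0.0509) CCND1 did not pass. CCND3 (-0.57 ± 0.23, adjusted p = 0.0739) passed without siFOXA1.1 replicate 1 (adjusted p = 0.00295) or siFOXA1.2 replicate 1 (adjusted p = 0.0334), with library totals (0.0393) and with no filter (0.0467).

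The control siRNAs were compared with each other as a background. In RT112, 0 of 7 genes passed by edgeR, beside 2.11% of all genes, although CCND3 (-0.84 ± 0.22, adjusted p = 0.0587) and CDKN1B (-1.01 ± 0.28, adjusted p = 0.0669) had an unadjusted p under 0.05, beside 12.2% of all genes, and both passed with DESeq2. Both were lower under siControl.1. CCND3 passed with the replicate block (adjusted p = 0.0315). Without any 1 of the 4 siFOXA1 libraries the adjusted p was 0.00123 to 0.0178 for CCND3 and 0.0102 to 0.0382 for CDKN1B. In SCaBER, 0 of 9 passed by edgeR, beside 0.0671% of all genes, and 3 had an unadjusted p under 0.05 (CCND1, CCND3 and CDK6), beside 6.35%. The 9 include CDKN1A, whose SCaBER controls belong to the contrast that chose it, so nothing is read from CDKN1A here. CCND3 had 33.3 and 12.0 CPM under siControl.1 and 93.3 and 90.5 CPM under siControl.2, a log2 fold change of -2.03 ± 0.43 (adjusted p = 0.117), and CDK6 had 279 and 378 against 180 and 177 CPM (0.86 ± 0.22, adjusted p = 0.289). Both passed with DESeq2 (adjusted p = 0.00147 for CCND3 and 0.0375 for CDK6), and CCND3 passed with the replicate block (adjusted p = 0.00457). CCND3 also passed without siControl.1 replicate 1 (adjusted p = 0.00122), and without siFOXA1.1 replicate 1 or 2 CCND3 (adjusted p = 1.21e-05 and 1.60e-05) and CDK6 (0.00541 and 0.00692) did.

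In SCaBER, the contrast of the siRNAs against FOXA1 with the controls chose the set through CDKN1A, so the values are a description. No p-value is given for a gene in it. The counts past a threshold given below, and the genes named with them, are a description too, and nothing is read from them. CDKN1A had 93.2 and 53.6 CPM under siControl.1, 72.0 and 89.2 under siControl.2, 359 and 316 under siFOXA1.1, and 161 and 154 under siFOXA1.2. All 4 siFOXA1 libraries lay above all 4 controls, and the siFOXA1.1 pair lay above the siFOXA1.2 pair. CDKN1A was the 1 gene of 9 with no overlap between the pooled siRNAs and the controls, as 5.06% of all genes tested. For each siRNA alone, 5 of 9 genes did not overlap under siFOXA1.1 (28.7% of all genes) and 2 of 9 under siFOXA1.2 (15.1%), and nothing is read from these counts. The log2 fold change of CDKN1A was 2.16 ± 0.22 under siFOXA1.1, 1.06 ± 0.22 under siFOXA1.2 and 1.71 ± 0.29 with the siRNAs pooled. Within batches it was 2.18 and 2.19 under siFOXA1.1 and 0.98 and 1.18 under siFOXA1.2.

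Of the other 8 genes with counts in SCaBER, 6 had log2 fold changes of opposite sign under siFOXA1.1 and siFOXA1.2, and CCND3 (0.97 and 0.73) and CDK6 (0.28 and 0.15) were positive under both, against the average of the controls. The sign of these 2 genes turned with the control used. CCND3 was -0.05 and -0.28 (siFOXA1.1 and siFOXA1.2) against siControl.2 alone and 1.98 and 1.75 against siControl.1 alone, and CDK6 was -0.15 and -0.29 against siControl.1 alone and 0.71 and 0.58 against siControl.2 alone. CCND1 had 799, 977, 646 and 621 CPM in the controls, 452 and 458 under siFOXA1.1 and 843 and 837 under siFOXA1.2, so it lay below all controls under one siRNA and within their range under the other. CDKN2B had 13.2 to 16.1 CPM in the controls, 25.2 and 24.2 under siFOXA1.1 and 9.56 and 9.98 under siFOXA1.2, above the controls under one and below them under the other. CDKN1B had 18.7 to 33.4 CPM in the controls, 15.0 and 11.1 under siFOXA1.1 and 35.5 and 27.4 under siFOXA1.2. CDKN2A had 40.1 and 101 CPM under siFOXA1.1, the lowest and the highest SCaBER value in 1 group. CCND3 (118 and 56.5 CPM), CDK6 (236 and 343 CPM) and CDKN2C (21.2 and 19.5 CPM) overlapped their controls under siFOXA1.1. CCNE1 had 1.14 and 3.04 CPM under siFOXA1.1, below the controls at 3.27 to 5.74 CPM. Apart from CDKN1A, the genes with an adjusted p under 0.05 by edgeR were 1 of 8 under siFOXA1.1 (CCND1), where 7.87% of all genes were, 0 of 8 under siFOXA1.2 (0.0373%) and 0 of 8 pooled (0.00746%). With an unadjusted p under 0.05 there were 4, 0 and 0, beside 21.1%, 5.24% and 8.85% of all genes. Under siFOXA1.1, CCND1 had a log2 fold change of -0.69 ± 0.16, and of -0.46 against siControl.2 alone, where it was not under the threshold, as it was not with limma. The count under siFOXA1.1 was 2 with the replicate block, with CCND3 added. The proliferation markers summed to 857 and 1551 CPM under siFOXA1.1, 2551 to 3335 CPM in the controls and 2868 and 2906 CPM under siFOXA1.2, and their part in these values was not tested.

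Between the siRNAs against FOXA1 in SCaBER, CCND1 was lower under siFOXA1.1 (-0.88 ± 0.18, adjusted p = 0.0102), 1 of 8 genes beside 4.13% of all genes, with CDKN1A left out because these libraries chose it. CCND1 did not pass without siFOXA1.2 replicate 1 (adjusted p = 0.103) or replicate 2 (adjusted p = 0.0756) or with limma (adjusted p = 0.193). CDKN2B (1.34 ± 0.42, adjusted p = 0.0938) and CDKN1B (-1.26 ± 0.40, adjusted p = 0.102) did not pass, and CDKN1B did without siFOXA1.1 replicate 1 (-1.52, adjusted p = 0.0455).

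Whether the change under an siRNA differed between the lines was tested as an interaction over all 16 libraries. The SCaBER side of this test is the contrast that chose CDKN1A, which was left out, as were CDKN2A and CDKN2B with 0 counts in RT112. Under siFOXA1.1, 3 of 6 genes differed, beside 2.59% of all genes: CDKN2C, CCND3 and CCNE1, each lower in RT112. CDKN2C changed by -2.89 ± 0.51 in RT112 and -0.22 ± 0.31 in SCaBER, a difference of -2.69 ± 0.57 (adjusted p = 0.0130). CCND3 changed by -0.78 ± 0.20 in RT112 and was 0.97 ± 0.34 in SCaBER, a difference of -1.77 ± 0.45 (adjusted p = 0.0392). CCNE1 changed by -4.05 ± 0.54 in RT112 and was -0.95 ± 0.89 in SCaBER, a difference of -3.13 ± 0.83 (adjusted p = 0.0465). CCND1, at 0.19 ± 0.21 (adjusted p = 0.793), CDK6, at 0.71 ± 0.24 (adjusted p = 0.131), and CDKN1B, at 1.29 ± 0.43 (adjusted p = 0.125), did not pass. CDKN2C did not pass without RT112 siFOXA1.1 replicate 1 (adjusted p = 0.0776). Against siControl.2 alone in both lines, an alternative chosen after seeing the data, none of the 6 genes passed: the difference was -2.11 for CDKN2C (adjusted p = 0.121), -1.17 for CCND3 (adjusted p = 0.346) and -3.19 for CCNE1 (adjusted p = 0.102). Against siControl.1 alone, CDKN2C (-3.28, adjusted p = 0.0131), CCND3 (-2.36, adjusted p = 0.0261) and CDK6 (1.09, adjusted p = 0.0475) passed and CCNE1 (-3.07, adjusted p = 0.110) did not. The SCaBER controls differed by -2.03 in CCND3, as given above. CCND3 did not pass without RT112 siFOXA1.1 replicate 2 (adjusted p = 0.108) or SCaBER siFOXA1.1 replicate 1 (adjusted p = 0.105), or with limma (adjusted p = 0.0865). CCNE1 did not without any 1 of the 4 RT112 siControl libraries, the SCaBER siControl.2 libraries, RT112 siFOXA1.1 replicate 2 or SCaBER siFOXA1.1 replicate 2 (adjusted p = 0.0515 to 0.277). CDK6 passed without SCaBER siFOXA1.1 replicate 2 (adjusted p = 0.0168). Under siFOXA1.2, 0 of 6 passed by edgeR, DESeq2 or limma, beside 0.0453% of all genes by edgeR, and 1 had an unadjusted p under 0.05 (CCND3), beside 5.83% of all genes.

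Of 31 other genes of the G1 to S pathway, 30 were tested in RT112. Under siFOXA1.1, 1 rose and 13 fell, beside 14% and 15.1% of all genes, and the median log2 fold change was -0.58 against -0.02 over all genes. The gene that rose was CCNH (0.96 ± 0.36, adjusted p = 0.0497), the cyclin of the CDK-activating kinase. The largest falls were in CCNA2 (-4.05 ± 0.41, adjusted p = 3.75e-07), the S phase cyclin A2, CDKN3 (-3.12 ± 0.39, adjusted p = 3.89e-06), a CDK phosphatase, and TFDP1 (-2.10 ± 0.25, adjusted p = 3.25e-06), the partner of E2F factors. CCNA2 had at least 25.8 CPM in the controls and 1.18 and 2.49 CPM under siFOXA1.1. Under siFOXA1.2, 0 of 30 passed by edgeR, beside 1.78% of all genes, and 4 had an unadjusted p under 0.05, beside 11.4%. The median was -0.01. In SCaBER, 29 were tested. Under siFOXA1.1 in SCaBER, 0 of 29 were higher and 9 lower, where 3.80% and 4.07% of all genes were, with a median of -0.45 against 0.01, a description since this contrast chose the G1 genes. Under siFOXA1.2 in SCaBER 0 had an adjusted or an unadjusted p under 0.05 by edgeR, where 0.0373% and 5.24% of all genes did. The median was 0.07.

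**Figure D5:**
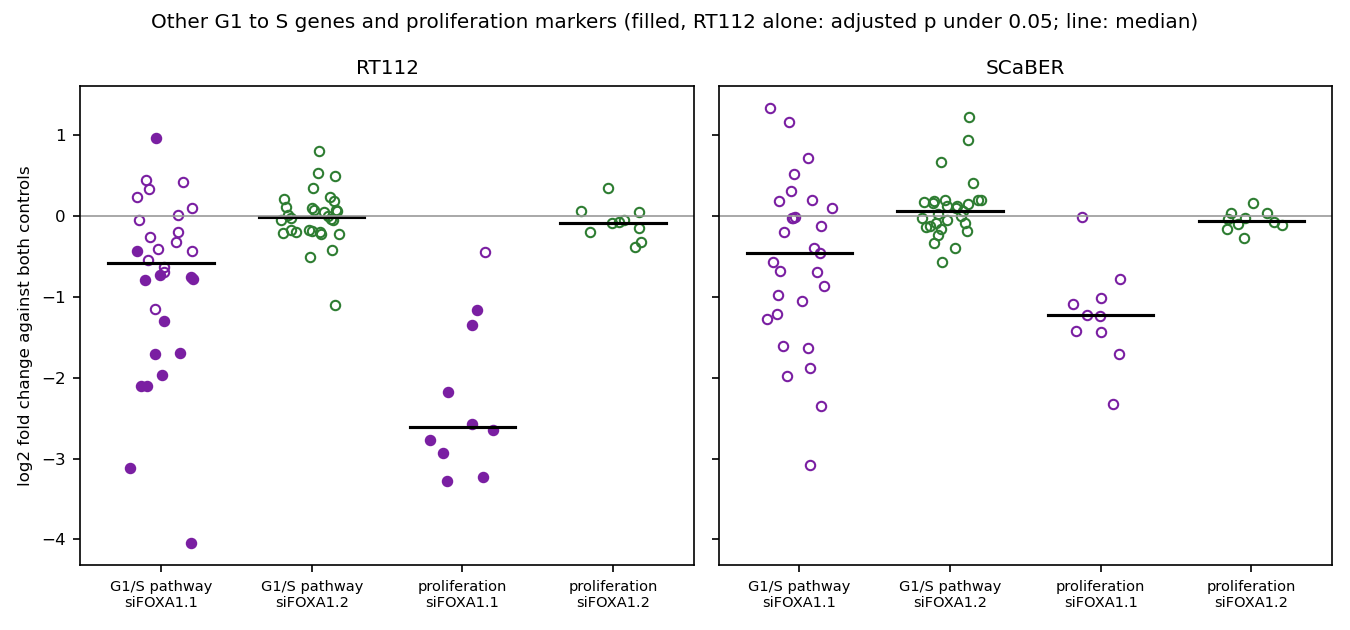
Log2 fold change against both controls of the other G1 to S genes and of the 10 proliferation markers, a point per gene, in RT112 (left) and SCaBER (right), with a line at the median. Filled points in RT112 have an adjusted p under 0.05. The RT112 medians were -0.58 and -2.61 under siFOXA1.1 and -0.01 and -0.08 under siFOXA1.2.

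The genes whose pattern was most like that of CDKN1A were ranked by Pearson's r of log2 CPM over the 16 libraries, after subtracting the mean of each line, among 9705 genes. The first 5 were ALCAM (r = 0.948), RAB8B (r = 0.900), RBCK1 (r = 0.863), GSE1 (r = 0.862) and ZNF33A (r = 0.847). The libraries share siRNAs, batches and controls, and r within RT112 alone was from -0.04 for RBCK1 to 0.78 for ALCAM, against 0.91 to 0.97 in SCaBER. Under siFOXA1.1 in SCaBER, GSE1 had a log2 fold change of 1.80 and RAB8B of 1.73, next to 2.16 for CDKN1A. It was lower for ZNF33A (0.95), RBCK1 (0.86) and ALCAM (0.61), the last being first by r. The ranking includes the SCaBER libraries that chose CDKN1A. Of the other G1 genes ranked, CCND1 (r = -0.60) and CCND3 (r = 0.45) lay farthest from 0 against CDKN1A over the 16 libraries. CDKN1C, CDKN2A and CDKN2B were not ranked. For CCND1, r was -0.41 in RT112 and -0.70 in SCaBER, while for CCND3 it had opposite signs, -0.27 in RT112 and 0.56 in SCaBER. The order within each line differed from that over the 16 libraries. For CCNE1, r was -0.34 over the 16 libraries, -0.62 in RT112 and -0.55 in SCaBER. For CDKN2C it was -0.60 in RT112 and -0.09 in SCaBER, and for CDK6 0.53 and 0.15. CDKN1B had opposite signs, 0.48 in RT112 and -0.57 in SCaBER.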

How the data were processed

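RNA of 16 libraries (10 nM siRNA, Lipofectamine RNAiMAX) was sequenced with a 3' mRNA kit (QuantSeq FWD), which reads transcript ends. The authors deposited whole-number read counts per gene and TPM values, which divide by gene length. Per the deposited configuration and the labels, reads were trimmed with TrimGalore 0.6.2 (minimum quality 20, minimum length 10), aligned to hg38 and counted with STAR 2.6.1a on GENCODE 29. The study's methods name hg19 and 10 ng of siRNA instead. Strand was set to automatic detection and its outcome is not stated. No molecular identifiers are in the tables, so the floor of 3 counts covers counting error alone.

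Groups came from the labels. The 10 genes and all lists were chosen with earlier results of these data known. In the SCaBER contrasts with siControl, which chose the set, no gene's p-value is given and counts past the threshold are a description. Each line was fitted on the 8 libraries (1 mean per siRNA) and the interaction on all 16, with edgeR 4.0.16 in R 4.3.3: TMM, filterByExpr on the siRNA groups, the quasi-likelihood test and p-values adjusted by Benjamini-Hochberg over all genes tested (13462 in RT112, 13407 in SCaBER, 14036 between lines, 15464 for the interaction), threshold 0.05. The pooled contrasts were an exception, with 1 mean for both siFOXA1 siRNAs and 1 for both controls. Between the lines, each line had 1 mean over its 4 siControl libraries. In both of these fits, differences between siRNAs count as spread between libraries. SE is the log2 fold change divided by the square root of F. p-values measure the spread between these libraries. The study used DESeq2. Alternatives were DESeq2 1.42.0, library totals, no filter beyond 1 count, limma 3.58.1 on log2(TPM + 1), the replicate block, each control alone (for the interaction chosen after seeing the data), 1 fit over all libraries, and leaving out each library. The siFOXA1.1 contrast with the controls in each line was also run on counts simulated from edgeR's own dispersions. The pooled, between-line and interaction fits were not simulated, and no result here rests on the simulation.

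The labels call the replicate number an experiment batch, so same-numbered libraries are paired by that label. The main tests did not use this pairing, and the replicate block, an alternative, did. The correlation between siRNA groups of the replicate differences over genes was -0.02 to 0.01 in RT112 and 0.01 to 0.16 in SCaBER (6 pairs each). Replicates differed by more than counting noise. All 10 genes and FOXA1 are named. From the list of 31 pathway genes, those with the 3 largest rises and 3 largest falls past the threshold in RT112 siFOXA1.1 are named (1 gene rose), as are the 5 genes most like CDKN1A with a mean of at least 20 counts in each line (prior count 2). No protein sequence is shown.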

Additional observations from a re-analysis of the deposited data

Results flagged for a closer look

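Changes under siFOXA1.1 that differed between the lines by the interaction test were those of CDKN2C (RT112 minus SCaBER -2.69, adjusted p = 0.0130), CCND3 (-1.77, adjusted p = 0.0392) and CCNE1 (-3.13, adjusted p = 0.0465). Against siControl.2 alone none of the 3 passed, a comparison chosen after seeing the data. In RT112 both siFOXA1.1 libraries lay below all 4 controls for the 3 genes. In that contrast 44.2% of all genes tested did not overlap the controls, in either direction. In SCaBER CDKN2C and CCND3 overlapped their controls, and CCNE1 lay below them at 1.14 and 3.04 CPM. There the share of all genes tested without overlap was 28.7%. No library stood apart from the other 3 of its control or knock-down group by Dixon's test in any of 33 groups of 4 libraries. Each group mixed both siRNAs of a target, so the difference between siRNAs entered the range. A library that departs from its own replicate can therefore go unseen, and nothing is concluded about single libraries.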

How the results depend on the processing

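No direction reversed for a gene past the threshold. Of the log2 fold changes recomputed, 1426 stayed the same, 47 newly passed, 28 no longer passed and 64 moved. For a gene past the threshold, the same means still past it. For any other gene, it means a shift under 1 SE of the main value, and moved means a larger shift. Counts of G1 genes called are given here with the share of all genes called under the same setting in brackets. The number called in RT112 with both siFOXA1 siRNAs pooled was 0 (0.0966%), and 4 with the average of the siRNA contrasts (15.3%). Between the RT112 controls it was 0 (2.11%), and 2 with DESeq2 (2.1%), with library totals (2.06%) and with no filter (2.26%). With the replicate block it was 1 (2.89%). For SCaBER siFOXA1.1 against the controls it was 1 (7.87%), and 2 with no filter (6.87%), with the replicate block (10.8%) and against siControl.1 alone (5.05%). It was 0 there with limma on TPM (1.05%) and against siControl.2 alone (5.62%). For SCaBER siFOXA1.1 against siFOXA1.2 it was 1 (4.13%), and 0 with limma on TPM (0.245%). Between the SCaBER controls it was 0 (0.0671%), and 2 with DESeq2 (0.35%) and with no filter (0.455%), and 1 with the replicate block (0.276%). For the interaction under siFOXA1.1 it was 3 (2.59%), and 0 against siControl.2 alone (1.31%), an alternative chosen after seeing the data. Leaving out each library gave 3 to 5 for RT112 siFOXA1.1 against the controls, 3 to 5 for RT112 siFOXA1.1 against siFOXA1.2, 0 to 2 between the RT112 controls, 1 to 2 for SCaBER siFOXA1.1 against the controls, 0 to 2 for SCaBER siFOXA1.1 against siFOXA1.2, 0 to 2 between the SCaBER controls, 3 to 4 between the lines and 1 to 3 for the interaction under siFOXA1.1. The replicate block, which pairs same-numbered libraries, changed the call of CDKN1A in RT112 siFOXA1.1. It also changed that of CCND3 in SCaBER siFOXA1.1 and between the controls of each line. No other call changed, with CDKN1A left out of the SCaBER contrasts that chose it. The cause of these moves was not tested. With 2 libraries per siRNA and line, each value rests on few libraries, and CCNE1 in RT112 siFOXA1.1 rests on 11 and 3 counts.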
